A study of Mus musculus with 12 samples.

Results

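The resident macrophage genes described here are 10 genes taken by symbol from a table of raw read counts: the complement chains C1qa, C1qb and C1qc, the surface proteins Adgre1, Mrc1, Csf1r and Vcam1, and the endosome and phagosome proteins Cd68, Slc11a1 and Mpeg1. All 10 were among the 24421 symbols of the table, and all 10 passed the filter on low counts that left 12744 genes for testing. The cells were taken from bone marrow in secondary recipients and sorted for GFP, Kit and Sca-1 and against lineage markers (LSK, the gate of blood stem cells and early multipotent progenitors). Secondary recipients are mice given marrow cells passed on from a first transplanted host. The engrafted cells were of 4 genotypes with 3 libraries each: miR146aKO_Runx1mut (labelled miR-146aKO/Runx1S291fsX300), Runx1mut (labelled Runx1S291fsX300), miR146aKO (titled Mir-146 KO/Empty) and wildtype (titled Empty). All 4 groups share the GFP label, the transplantation and the sort. The labels do not say what Empty stands for, how the mutant Runx1 was brought in, how old the mice were or whether a library came from 1 animal, so each p-value speaks of the spread among these libraries alone, which may be technical. The question behind the design is how the absence of miR-146a, which damps innate immune signals, and a mutant RUNX1, a factor that directs blood formation, act singly and in combination.

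Resident macrophages of the marrow clear dying cells and the nuclei that red cell precursors expel, and recycle their iron. Central macrophages of erythroblast islands carry F4/80 (Adgre1), VCAM1 and CD169 (Siglec1). Macrophages are the main source of C1q, the recognition part of the first complement component, which is built from the A, B and C chains. None of these genes is a defining gene of stem cells, although Csf1r, Mpeg1, Cd68 and Vcam1 are not confined to macrophages: Csf1r is also found in monocytes and myeloid progenitors, Mpeg1 in B cells, and Vcam1 in marrow stroma and activated endothelium.

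Total counts ran from 3540043 to 7026393 over the 12 libraries, with miR146aKO the shallowest group at 3540043 to 4353971. Levels are in CPM, counts scaled to library size with TMM factors, and intervals and floors cover counting error only, since amplified reads are not independent molecules. Mir146 had 14 counts in library A031, labelled miR146aKO_Runx1mut, and 0 in the other 11 libraries, wildtype included, so this row cannot check the labels; what part of the gene the knockout removes is not given in the sources used here. Runx1, whose reads do not tell mutant from wild-type transcript, ran over 120 to 259 CPM in miR146aKO_Runx1mut, 200 to 609 in Runx1mut, 98.3 to 168 in miR146aKO and 237 to 360 in wildtype. Kit averaged 187 ± 28.6 CPM (SD, n = 3) in miR146aKO_Runx1mut, 308 ± 349 in Runx1mut, 44.0 ± 17.9 in miR146aKO and 339 ± 111 in wildtype. This marker of the gate was present in every group and lowest in miR146aKO. The gate markers did not all move with Kit: DESeq2 called Ly6a, which encodes Sca-1, lower in miR146aKO_Runx1mut than in miR146aKO. In miR146aKO against wildtype, 1 of 8 gate and stem cell markers was higher, at an unadjusted edgeR p under 0.05. At that p 3 were lower, where 15.9% of all genes had such a p. The label of a stem and progenitor cell population thus stands beside macrophage transcripts in several libraries. In bulk RNA, more cells of a type and more RNA per cell cannot be told apart.

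All 10 genes had higher fitted levels where miR-146a was absent, in both Runx1 backgrounds. The genes were chosen with earlier results of these data known, so their shares beside all genes are descriptions. Averaged over miR146aKO against wildtype and miR146aKO_Runx1mut against Runx1mut, the log2 fold changes ran from 3.02 for Mpeg1 to 6.81 for C1qb, with a median of 4.70, where the median of all 12744 genes was -0.01. The 3 members that rose in edgeR's quasi-likelihood test with Benjamini-Hochberg adjustment over all 12744 genes were Slc11a1, Cd68 and C1qb, 3 of 10 where 0.4% of all genes were called and 0.369% called higher; all 10 had an unadjusted p under 0.05 on the higher side, where 7.09% of all genes did, and 49.2% of all genes had a log2 fold change above 0. The 6 libraries without miR-146a were above the 6 with it for the same 3 genes, where 0.337% of all genes were so separated. The other 7 members had edgeR adjusted p-values of up to 0.183. DESeq2 called all 10 members in this comparison, where it called 4.07% of the genes it tested, and limma-voom called 0 of them. The number of calls changed when 1 library was left out, which also leaves fewer libraries to test. EdgeR called 0 members without A021, A042, A150, A151, A015 or A053. It called 1 without A051 or A058, 2 without A040, 4 without A031, 6 without A001 and 8 without A047. Over these 12 fits the averaged log2 fold change ran over 6.01 to 7.31 for Slc11a1, 2.61 to 3.61 for Cd68 and 5.97 to 8.89 for C1qb. With a covariate for Y-linked genes the count of called members was also 0, at a median log2 fold change of the members of 4.17 against 4.70 without it. The Y-linked genes summed to 13.8 to 214 CPM in miR146aKO_Runx1mut, 26.2 to 169.6 in Runx1mut, 99.3 to 241 in miR146aKO and 0.547 to 31.98 in wildtype.

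**Figure D1:**
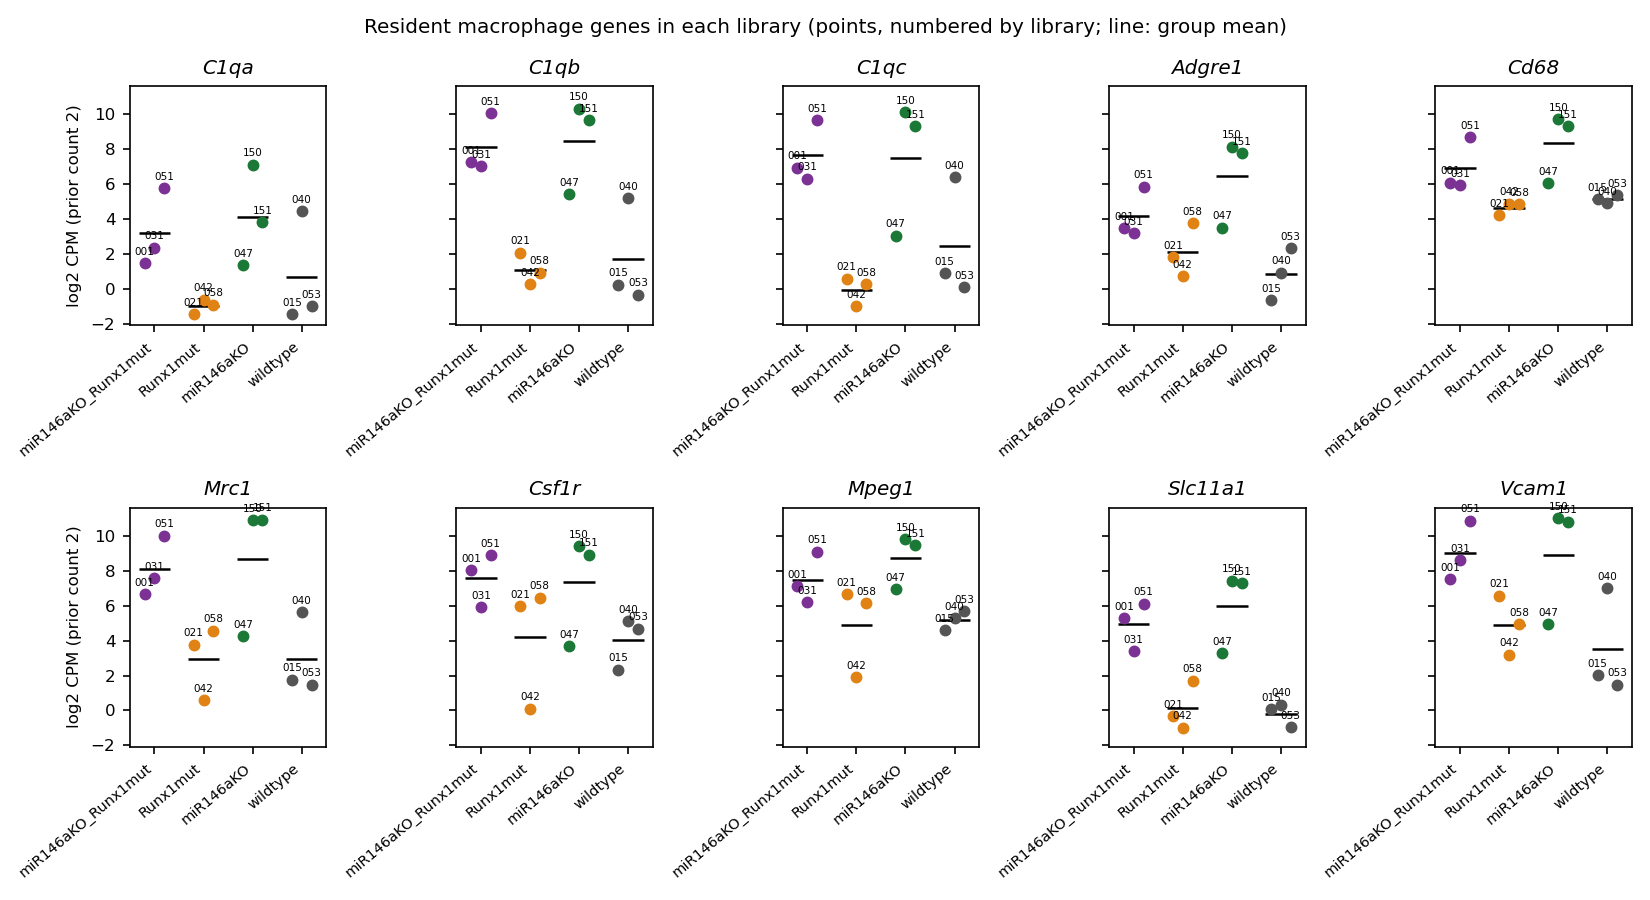
Level of each of the 10 genes (vertical axis, log2 CPM with a prior count of 2) in the 3 libraries of each genotype (points, numbered by library) with the group mean (line). Libraries A150, A151 and A051 stand at the top for most genes, and A047 lies well below the other miR146aKO libraries.

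The highest levels lay in few libraries. A150 of miR146aKO was the highest library for 9 of the 10 genes and A151 for the remaining one, Mrc1. A051 of miR146aKO_Runx1mut was among the 3 highest for all 10. Summed over the 10 genes, the level was 1075 CPM in A001, 1014 in A031 and 6439 in A051 of miR146aKO_Runx1mut, and 299 in A021, 46.0 in A042 and 259 in A058 of Runx1mut. It was 323 in A047, 9412 in A150 and 7455 in A151 of miR146aKO, and 74.0 in A015, 424 in A040 and 128 in A053 of wildtype. A047 was thus below A040 of wildtype, while the 3 miR146aKO_Runx1mut libraries were above all 6 libraries with miR-146a. Within miR146aKO the highest library was 7.36 to 143 times the lowest, with a median of 42.5 over the 10 genes; within miR146aKO_Runx1mut it was 6.496 to 22.3 times the lowest, with a median of 8.09.

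The C1q chains lie side by side on the minus strand of chromosome 4 (GRCm38), C1qb at 136880129 to 136886187, C1qc at 136889804 to 136893065 and C1qa at 136895917 to 136898803, within 18675 bases. Their sequence before the start of transcription is shown because these neighbouring chains were high in the same libraries, with those of Mrc1, whose level followed theirs most closely among the other members, and of Slc11a1, the member with the smallest adjusted p. Windows were taken for 6 of the 10 members (C1qb, C1qc, Cd68, Mrc1, Mpeg1 and Slc11a1), and the other members were not searched. The windows are from RefSeq (GRCm38.p6). Each is written 5′ to 3′ on the strand of its gene and ends before the start in both RefSeq and GENCODE. Capitals mark GAGGAA on either strand, a core that the myeloid factor PU.1 (Spi1) binds. They are chr4:136886201-136886450 for C1qb, chr4:136893066-136893164 for C1qc, chr2:14229164-14229391 for Mrc1 (plus strand) and chr1:74374953-74375194 for Slc11a1 (plus strand).
C1qb: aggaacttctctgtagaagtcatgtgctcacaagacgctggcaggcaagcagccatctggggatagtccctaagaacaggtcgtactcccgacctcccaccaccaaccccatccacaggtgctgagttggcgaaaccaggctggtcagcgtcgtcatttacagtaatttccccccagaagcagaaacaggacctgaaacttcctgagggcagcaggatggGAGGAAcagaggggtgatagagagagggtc
C1qc: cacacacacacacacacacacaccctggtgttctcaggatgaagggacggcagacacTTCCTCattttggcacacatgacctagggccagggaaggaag
Mrc1: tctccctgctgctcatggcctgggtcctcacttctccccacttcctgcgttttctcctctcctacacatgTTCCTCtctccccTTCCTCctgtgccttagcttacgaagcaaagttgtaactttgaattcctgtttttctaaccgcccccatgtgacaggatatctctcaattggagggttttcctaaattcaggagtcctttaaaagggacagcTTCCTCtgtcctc
Slc11a1: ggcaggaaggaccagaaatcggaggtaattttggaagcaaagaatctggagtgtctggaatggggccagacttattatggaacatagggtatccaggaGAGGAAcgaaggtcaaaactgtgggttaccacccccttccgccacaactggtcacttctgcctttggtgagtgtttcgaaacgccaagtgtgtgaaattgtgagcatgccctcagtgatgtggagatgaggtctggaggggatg
Over the 250 bases before the RefSeq start, 5 of the 6 windows held GAGGAA on either strand, Mrc1 with 3 matches, and Mpeg1 held none. Of all 32851 windows of this length in the table, 23.3% held it. A second motif searched on both strands, TGCTGAC, was in 0 of the 6 windows and in 3.81% of all windows. A match is a description of the letters and not of binding.

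C1qb, the B chain, had the highest mean level of the chains per kilobase in miR146aKO_Runx1mut and miR146aKO. It stood at 152, 132 and 1085 CPM in A001, A031 and A051 of miR146aKO_Runx1mut, against 3.83, 0.854 and 1.54 CPM in A021, A042 and A058 of Runx1mut. It stood at 42.4, 1296 and 826 CPM in A047, A150 and A151 of miR146aKO, against 0.821, 36.6 and 0.427 CPM in A015, A040 and A053 of wildtype. Every library without miR-146a was above every library with it, A047 by a small margin over A040. Averaged over both backgrounds C1qb rose by 6.81 ± 1.205 (log2, SE), with an edgeR adjusted p of 0.0451.

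C1qc, the C chain, followed the same libraries. Its level was 123, 79.2 and 818 CPM in A001, A031 and A051, against 1.14, 0.142 and 0.855 CPM in the Runx1mut libraries A021, A042 and A058. It was 7.90, 1126 and 642 CPM in A047, A150 and A151, against 1.51, 84.2 and 0.712 CPM in the wildtype libraries A015, A040 and A053. Here A040 of wildtype lay above A031 and A047, so the groups overlapped, and the averaged difference of 6.62 ± 1.36 on the log2 scale did not pass (edgeR adjusted p = 0.0514).

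C1qa, the A chain, gave few reads. It had 14, 27 and 222 counts in A001, A031 and A051, against 0, 2 and 1 in A021, A042 and A058. It had 7, 575 and 57 counts in A047, A150 and A151, against 0, 96 and 1 in A015, A040 and A053. The 0 counts of A021 and A015 allow up to 0.426 and 0.410 CPM. Summed over the groups, C1qa had 263 counts in miR146aKO_Runx1mut and 3 in Runx1mut, a ratio of 112 (95% counting interval 38.0 to 548). A051 held 222 of the 263 counts, and without it the ratio, an addition made after seeing the data, was 23.8 (7.60 to 120). The test between libraries gave 6.87 ± 2.36 on the log2 scale (edgeR adjusted p = 0.979), and 4.38 without A051. The averaged difference was 4.87 ± 1.496 on the log2 scale (edgeR adjusted p = 0.183).

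The chains did not keep 1 ratio. Of all C1q counts, C1qa made up 5.43% in A150 (95% Wilson interval 5.02 to 5.88%), 0.937% in A151 (0.724 to 1.21%) and 2.75% in A051 (2.42 to 3.13%), against 15.0% in A040 of wildtype (12.4 to 18.0%). C1qb made up 50.6% in A150, 55.7% in A151 and 55.5% in A051, against 25.8% in A040 (22.5 to 29.3%). A040, the only wildtype library with more than 17 C1q counts, thus held 640 such counts in another proportion than the libraries without miR-146a. The C1qc share ran from 15.1% in A047 (10.4 to 21.3%) to 44.4% in A001 among the 6 libraries without miR-146a, and was 59.2% in A040 (55.4 to 63.0%).

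Mrc1, the mannose receptor CD206 that takes up glycoproteins (chromosome 2, 14229392 to 14332057), stood at 101, 190 and 1031 CPM in A001, A031 and A051, against 13.2, 1.14 and 23.3 CPM in A021, A042 and A058. It stood at 19.0, 1900 and 1958 CPM in A047, A150 and A151, against 3.01, 49.1 and 2.42 CPM in A015, A040 and A053. The microRNA gene Mir511 lies within it. A047 was below A040 and A058, so the groups overlapped, and the averaged difference was 5.65 ± 1.18 on the log2 scale (edgeR adjusted p = 0.0528).

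Vcam1, which binds the integrin VLA-4 of blood cells (chromosome 3, 116109949 to 116129688), was highest in the same libraries. It stood at 181, 393 and 1889 CPM in A001, A031 and A051, against 95.5, 8.82 and 30.6 CPM in A021, A042 and A058. It stood at 30.3, 2058 and 1814 CPM in A047, A150 and A151, against 3.69, 128 and 2.42 CPM in A015, A040 and A053. A047 lay below A040, A021 and A058. The averaged difference of 4.53 ± 1.16 on the log2 scale did not pass (edgeR adjusted p = 0.105). The antisense gene Gm43109 overlaps Vcam1, and the libraries do not keep the strand, so reads of the pair cannot be told apart.

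Adgre1, which encodes F4/80 (chromosome 17, 57358691 to 57483527), had its highest levels in A150 and A151. It stood at 10.7, 8.88 and 57.7 CPM in A001, A031 and A051, against 3.12, 1.28 and 13.3 CPM in A021, A042 and A058. It stood at 11.1, 285 and 220 CPM in A047, A150 and A151, against 0.274, 1.55 and 4.70 CPM in A015, A040 and A053. The 3 miR146aKO libraries were above the 3 wildtype libraries, at a log2 difference of 6.28 ± 1.42 (edgeR adjusted p = 0.0706), while A058 of Runx1mut was above A001, A031 and A047. It was the only member with an unadjusted p under 0.05 in miR146aKO_Runx1mut against miR146aKO, at -2.74 ± 1.19 (edgeR adjusted p = 0.301), and in the interaction, at -4.16 ± 1.68 (edgeR adjusted p = 0.463), so neither passed.

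Csf1r, the receptor of the macrophage growth factor CSF1 (chromosome 18), stood at 260.0, 60.1 and 479 CPM in A001, A031 and A051, against 62.6, 0.711 and 87.8 CPM in A021, A042 and A058. It stood at 12.6, 688 and 484 CPM in A047, A150 and A151, against 4.65, 34.2 and 25.5 CPM in A015, A040 and A053. The Runx1mut libraries A021 and A058 thus lay above A031 and A047. The averaged difference was 3.30 ± 0.97 on the log2 scale (edgeR adjusted p = 0.165). Hmgxb3 overlaps Csf1r on the other strand, so some reads may be of that gene.

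Slc11a1, which pumps iron and manganese out of the phagosome (chromosome 1, 74375195 to 74386062), had the smallest adjusted p of the 10. It stood at 38.6, 10.1 and 69.6 CPM in A001, A031 and A051, against 0.426, 0.142 and 2.91 CPM in A021, A042 and A058. It stood at 9.48, 173 and 155 CPM in A047, A150 and A151, against 0.684, 0.888 and 0.142 CPM in A015, A040 and A053. Its counts were few in the libraries with miR-146a. They were 5, 4 and 1 in A015, A040 and A053, and 3, 1 and 17 in A021, A042 and A058. A count of 3, the floor, was 0.410, 0.666 and 0.427 CPM in A015, A040 and A053. The size of its rise thus rests on few reads. No library without miR-146a was within the range of those with it. It rose by 6.35 ± 0.93 on the log2 scale averaged over both backgrounds (edgeR adjusted p = 0.0217) and by 7.61 ± 1.40 in miR146aKO against wildtype (edgeR adjusted p = 0.0493), where 0.149% of all genes were called higher. In miR146aKO_Runx1mut against Runx1mut the difference was 5.09 ± 1.24 (edgeR adjusted p = 0.763). The call in miR146aKO against wildtype was lost without A150 (edgeR adjusted p = 0.118), A151 (0.15), A015 (0.101), A040 (0.113) or A053 (0.174), and under limma-voom (adjusted p = 0.142).

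Cd68, a heavily glycosylated protein of late endosomes (chromosome 11, 69664213 to 69666153), stood at 67.5, 61.8 and 411 CPM in A001, A031 and A051, against 18.2, 29.2 and 28.4 CPM in A021, A042 and A058. It stood at 66.1, 850.0 and 634 CPM in A047, A150 and A151, against 35.4, 29.8 and 40.9 CPM in A015, A040 and A053. All 6 libraries without miR-146a were above all 6 with it. Cd68 rose by 3.35 ± 0.60 on the log2 scale averaged over both backgrounds (edgeR adjusted p = 0.0451).

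Mpeg1, the pore-forming perforin-2 of phagocytes (chromosome 19, 12460779 to 12465283), stood at 138, 74.3 and 545 CPM in A001, A031 and A051, against 101, 3.41 and 69.8 CPM in A021, A042 and A058. It stood at 122, 896 and 709 CPM in A047, A150 and A151, against 23.9, 38.9 and 50.97 CPM in A015, A040 and A053. A021 of Runx1mut was above A031. The averaged difference of 3.02 ± 0.72 on the log2 scale, the smallest of the 10, did not pass (edgeR adjusted p = 0.086).

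**Figure D2:**
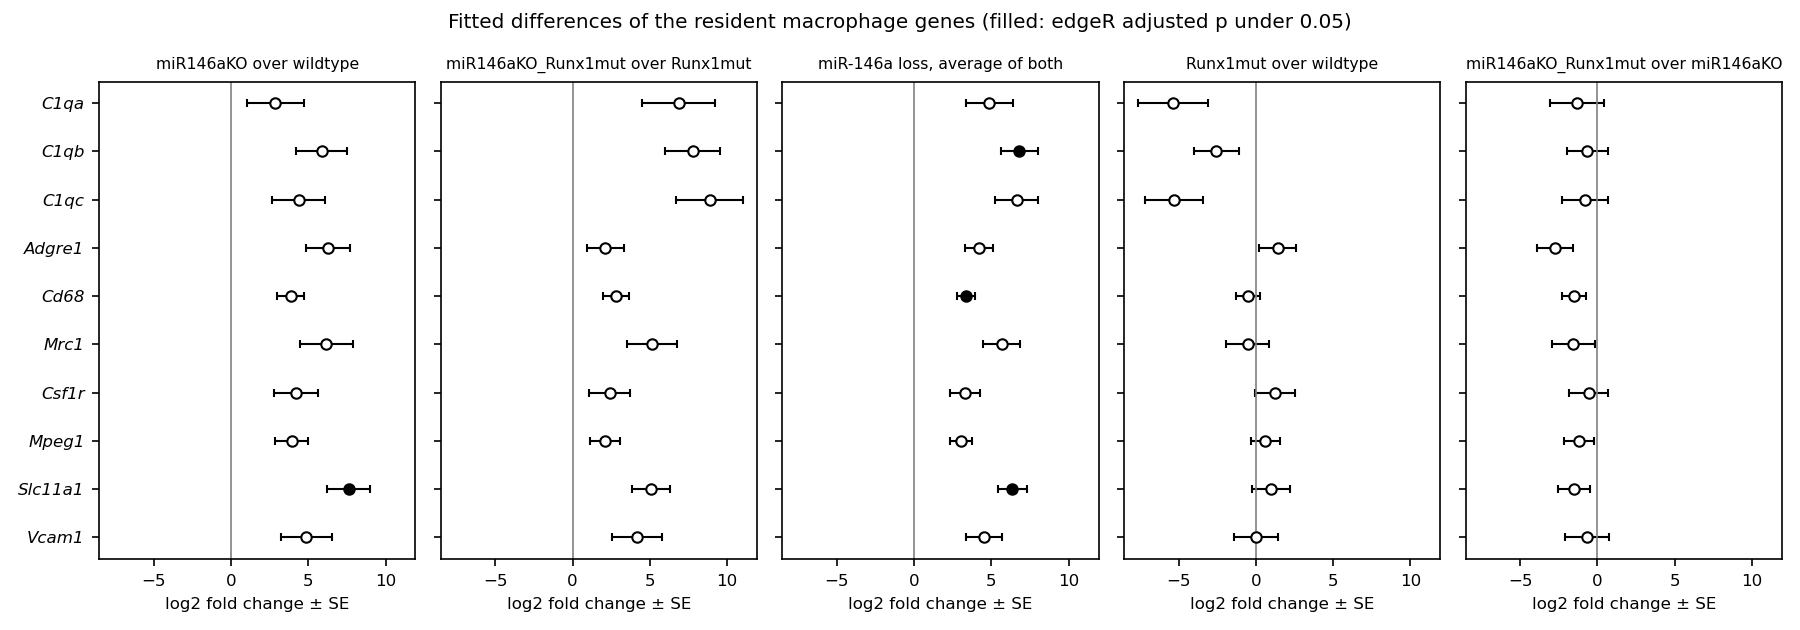
Log2 fold change with its SE (horizontal axis) of each of the 10 genes in 5 comparisons, filled where the edgeR adjusted p was under 0.05. All 10 are above 0 in the comparisons of genotypes without and with miR-146a; in Runx1mut over wildtype the median is -0.23, which changes sign without A040 or A042, and in miR146aKO_Runx1mut over miR146aKO all 10 are below 0 with none called.

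The comparisons with wildtype share its 3 libraries, and the averaged one is built from those that follow. In miR146aKO against wildtype all 10 members were on the higher side, as were 49.9% of all genes, with a median log2 fold change of 4.62 (all genes -0.0030), 9 had an unadjusted p under 0.05 where 8.81% of all genes were higher by that measure, and 5 had groups that did not overlap where 10.7% of all genes did. Of the members edgeR called Slc11a1 alone, where 0.18% of all genes were called, DESeq2 called 8, where it called 7.63% of the genes it tested, and limma-voom 0. In miR146aKO_Runx1mut against wildtype all 10 were on the higher side (51.3% of all genes), the median was 3.60, and 8 members had libraries above all wildtype libraries where 6.32% of all genes did. Slc11a1 had the smallest edgeR adjusted p there, 0.302, and C1qb differed by 5.20 ± 1.57 on the log2 scale (edgeR adjusted p = 0.451). EdgeR called no member and 0% of all genes, with 9 members at an unadjusted p under 0.05 (4.99% of all genes were higher by that measure); DESeq2 called 3 members (Slc11a1, Mrc1 and C1qb), where it called 1.88% of the genes it tested, and limma-voom 0.

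In miR146aKO_Runx1mut against Runx1mut the C1q chains differed most. C1qc was higher by 8.86 ± 2.15 and C1qb by 7.76 ± 1.78 on the log2 scale (edgeR adjusted p = 0.763 for both), with 14 and 42 counts in the 3 Runx1mut libraries. All 10 were on the higher side (50.4% of all genes) with a median of 4.64, and 7 members did not overlap where 3.85% of all genes lay above. EdgeR called no member and 0% of all genes there; 8 members had an unadjusted p under 0.05, where 2.88% of all genes were higher by that measure. DESeq2 called 5 members (Slc11a1, Mrc1, C1qa, C1qb and C1qc), where it called 0.566% of the genes it tested, and limma-voom 0.

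The members had no shared direction in Runx1mut against wildtype. There 5 members were higher and 5 lower (50.3% of all genes higher), with 0 called by edgeR, DESeq2 or limma-voom and 2 at an unadjusted p under 0.05 (5.52% of all genes). Those 2 were C1qc at -5.29 ± 1.89 (edgeR adjusted p = 0.755) and C1qa at -5.35 ± 2.25 (edgeR adjusted p = 0.865), both with A040 as the highest wildtype library; without it C1qa was on the higher side, at 0.88 on the log2 scale, and C1qc was at -0.66. The members' median of -0.23 in this comparison turned to 1.27 without A040 and to 0.26 without A042. Cd68 was the 1 member with Runx1mut libraries below all wildtype libraries, where 6.41% of all genes were. In miR146aKO_Runx1mut against miR146aKO all 10 members were on the lower side, from -2.74 to -0.57 on the log2 scale, with 0 called by edgeR, DESeq2 or limma-voom and 1, Adgre1, at an unadjusted p under 0.05 (14.8% of all genes). In that comparison 0.0157% of all genes were called and 49.6% were on the higher side. The groups overlapped for every member, where 9.45% of all genes lay above without overlap and 9.81% below. The interaction, the difference of miR146aKO_Runx1mut from miR146aKO minus that of Runx1mut from wildtype, ran from -4.16 to 4.49 on the log2 scale, positive for the 3 C1q chains and negative for the other 7, with 0 called by edgeR, DESeq2 or limma-voom and 1 at an unadjusted p under 0.05 (9.46% of all genes). There 0.0235% of all genes were called and 50.9% were positive. A040 held 96 of the 97 C1qa counts, 165 of the 174 C1qb counts and 379 of the 395 C1qc counts of wildtype. The interaction signs of the 3 chains rest on that library and were not recomputed without it.

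The order of the group means was the same at its upper end for all 10 genes, miR146aKO first and miR146aKO_Runx1mut second. Runx1mut came before wildtype for Adgre1, Csf1r, Mpeg1, Slc11a1 and Vcam1 and after it for the 3 C1q chains, Cd68 and Mrc1. The wildtype means of the C1q chains and Mrc1 rest mostly on A040. By group median, Runx1mut was above wildtype for C1qb (1.54 against 0.821 CPM), Mrc1 (13.2 against 3.01) and C1qa (0.171 against 0.142). It was below wildtype for C1qc (0.855 against 1.51). EdgeR called no member in the upper pair or in the lower pair of groups. In the upper pair 1 member had an unadjusted p under 0.05 (14.8% of all genes), and in the lower pair 2 had (5.52%). Groups not called apart are not thereby shown to be alike. Per kilobase of exon, mean levels in miR146aKO were led by C1qb at 663 ± 582 CPM per kb (SD, n = 3), Cd68 at 411 ± 322 and C1qc at 307 ± 290. In wildtype Cd68 led at 28.1 ± 4.42 CPM per kb, followed by C1qc at 14.9 ± 24.8 and C1qb at 11.6 ± 19.1. Slc11a1 was the lowest of the 10 in miR146aKO, at 30.4 ± 24.2 CPM per kb, and in wildtype, at 0.154 ± 0.104.

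Across the 12 libraries the 10 genes followed each other. The Pearson correlation of log2 CPM over the 45 pairs ran from 0.668 to 0.973 with a median of 0.859; the libraries share the groups and the 3 high libraries, so these are descriptions. Against the mean of the C1q chains Mrc1 followed most closely at 0.948, then Vcam1 at 0.923 and Slc11a1 at 0.891, and Csf1r least at 0.774.

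Of 9625 other named genes with a mean log2 CPM of at least 2, those most like the mean of the C1q chains over the 12 libraries included Hmox1 (r = 0.982), Itgad (0.977), Cd5l (0.959), AI607873 (0.945), Ccr3 (0.943), Lpl (0.932), Clec4a3 (0.931), Axl (0.927) and Fcna (0.926). Hmox1 is haem oxygenase, which opens the haem ring of digested red cells, and averaged 273 ± 371 CPM (SD, n = 3) in miR146aKO_Runx1mut, 2.11 ± 0.644 in Runx1mut, 755 ± 627 in miR146aKO and 11.2 ± 17.4 in wildtype. Cd5l, a scavenger protein that macrophages secrete, averaged 317 ± 444 CPM in miR146aKO_Runx1mut, 0.655 ± 0.769 in Runx1mut, 395 ± 342 in miR146aKO and 10.2 ± 15.2 in wildtype. Itgad, the integrin chain CD11d of red pulp macrophages, averaged 106 ± 125, 0.171 ± 0.296, 106 ± 96.4 and 6.61 ± 10.2 CPM in miR146aKO_Runx1mut, Runx1mut, miR146aKO and wildtype.

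**Figure D3:**
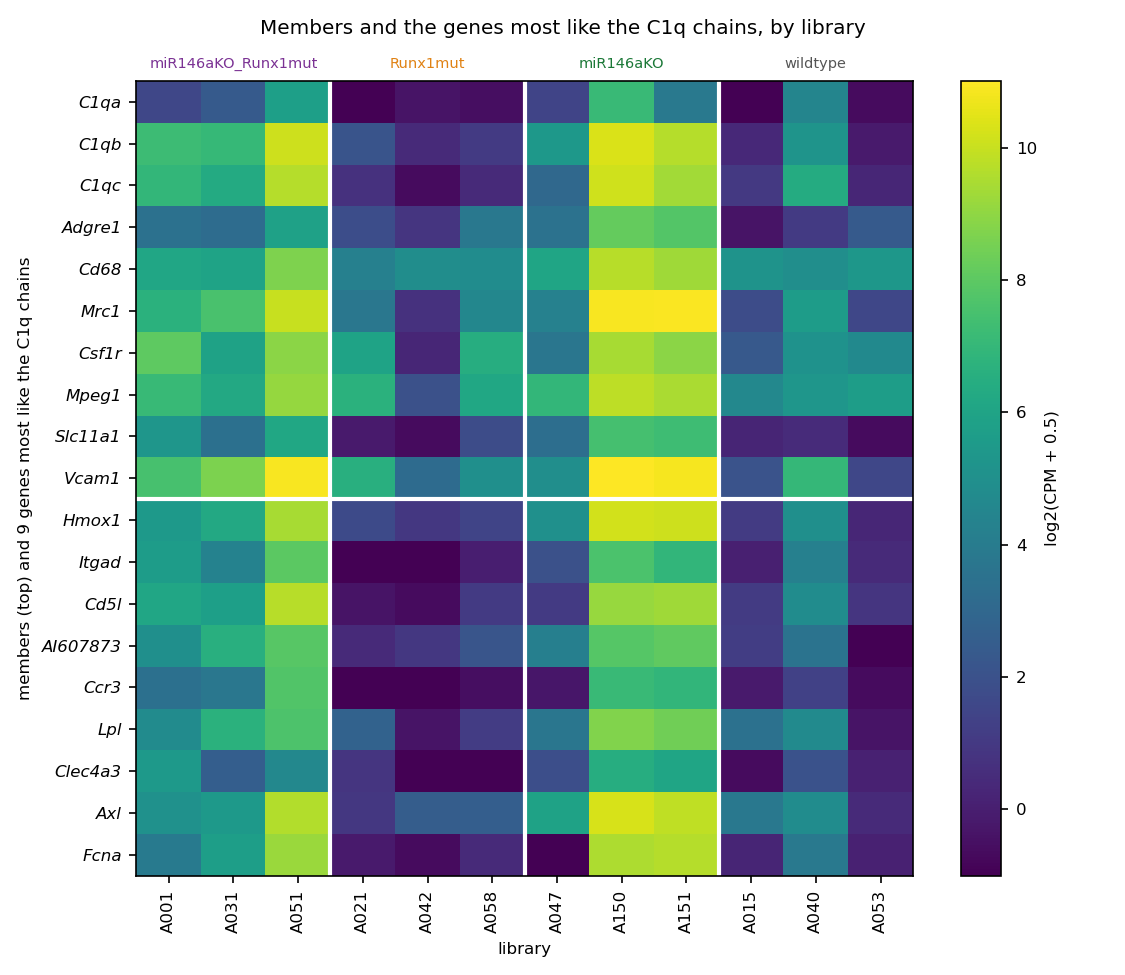
Level (colour, log2 of CPM plus 0.5) of the 10 members (upper rows) and 9 genes most like the C1q chains (lower rows) in each library, ordered by genotype. The columns of A150, A151 and A051 are bright for nearly all rows, and A040 is the brightest wildtype column for the C1q chains, Mrc1 and Vcam1.

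Other genes of macrophage work were examined as 5 lists, by their counts and medians in the comparison averaged over both backgrounds, where 0.369% of all genes were called higher. These lists and the marker lists below were also chosen with earlier results of these data known. Their shares and medians beside all genes are descriptions. The calls in these lists changed when 1 library was left out: edgeR called none of their genes without A021, A042, A150, A151, A015 or A053. Without A051 it called Spic and Siglec1, without A058 Acp5, and without A040 Hmox1. With the Y-linked covariate it called Acp5 alone of these lists. Of 17 tested phagocytic receptors 3 rose and 0 fell, and the median log2 fold change was 4.53, against -0.01 for all genes; DESeq2 called 10 and limma-voom 0. The 3 were Mertk and Axl, the receptors that bind dying cells through bridging proteins, and Cd36, a scavenger receptor (edgeR adjusted p = 0.0471, 0.0451 and 0.0471). Axl averaged 292 ± 439 CPM (SD, n = 3) in miR146aKO_Runx1mut, 4.10 ± 2.32 in Runx1mut, 747 ± 617 in miR146aKO and 14.2 ± 13.8 in wildtype. The other abundant receptors of the list did not pass: Lrp1 differed by 3.26 ± 1.11 on the log2 scale (edgeR adjusted p = 0.231) and Scarb1 by 0.10 ± 0.67 (edgeR adjusted p = 0.974).

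Of 16 tested genes of iron handling and erythroblast islands 3 rose and 0 fell, with a median of 1.74; DESeq2 called 9 and limma-voom 0. The 3 were Siglec1, Hmox1 and Cd5l (edgeR adjusted p = 0.0217, 0.0451 and 0.0471). Siglec1, the CD169 of island macrophages, averaged 75.4 ± 109 CPM in miR146aKO_Runx1mut, 0.294 ± 0.128 in Runx1mut, 188 ± 164 in miR146aKO and 0.0931 ± 0.0806 in wildtype. Its Runx1mut and wildtype means were below the floor of 3 counts (0.426 to 0.513 CPM in Runx1mut, 0.410 to 0.666 in wildtype). The size of its rise thus rests on few reads. The most abundant genes of the list were Fth1 and Ftl1, the ferritin chains, and Trf, transferrin; they differed by 1.38 ± 0.37, 1.31 ± 0.34 and 3.64 ± 0.75 on the log2 scale without passing.

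Of 13 tested genes of the CSF1 axis and macrophage transcription factors, 1 rose and 0 fell, with a median of 1.02; DESeq2 called 5 and limma-voom 0. The gene called by edgeR was Spic, the factor of red pulp and marrow macrophages that haem induces, at 32.5 ± 30.3 CPM in miR146aKO_Runx1mut, 0.332 ± 0.358 in Runx1mut, 107 ± 92.8 in miR146aKO and 0.744 ± 0.351 in wildtype (edgeR adjusted p = 0.0217). The Runx1mut mean of Spic was below the floor of 3 counts (0.426 to 0.513 CPM) and its wildtype mean was near it (0.410 to 0.666 CPM). Spi1, Irf8 and Zeb2, the most abundant of this list, did not pass; Spi1, which encodes PU.1, differed by 0.35 ± 0.43 on the log2 scale. Of 16 tested lysosome and oxidase genes 2 rose, Ctsb and Acp5 (edgeR adjusted p = 0.0488 and 0.0451), and 0 fell, with a median of 1.54; DESeq2 called 9 and limma-voom 1, Acp5. All 16 were on the higher side, where 49.2% of all genes were. Ctsd and Lamp1, the other abundant genes of that list besides Ctsb, differed by 2.56 ± 0.57 and 1.17 ± 0.31 on the log2 scale without passing.

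Of 21 other complement genes tested, 0 were called by edgeR in any of the 7 comparisons, with 7 higher and 0 lower at an unadjusted p under 0.05 in the averaged one, where 7.09% of all genes were higher by that measure and the list's median was 1.34. There DESeq2 called 4 of them higher and limma-voom 0. C3, the central component, differed by 0.14 ± 0.78 on the log2 scale (edgeR adjusted p = 0.969), Cd93 by -0.37 ± 0.32 (edgeR adjusted p = 0.728) and Calr by 0.11 ± 0.38 (edgeR adjusted p = 0.947).

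Markers of other cell types also differed between the libraries, and their part in the levels of the 10 genes was not tested. In the averaged comparison edgeR called 0.369% of all genes higher, and 7.09% were higher at an unadjusted p under 0.05. It called 2 of 10 tested B lineage markers higher (Cd79b and Blk), with a list median of 2.62 on the log2 scale. It called 1 of 8 erythroid markers (Car1), with 7 on the higher side (49.2% of all genes) and a median of 3.72. Of 10 tested stromal and endothelial markers 0 were called, with 6 higher at an unadjusted p under 0.05 and a median of 3.93. DESeq2 called 4 of these, where it called 4.07% of the genes it tested, and limma-voom called 0. Of the 8 gate and stem cell markers 0 were called, with 3 lower at an unadjusted p under 0.05 and a median of -1.82. Of all genes 11.8% had such a p on either side. DESeq2 called Kit lower and limma-voom called 0. The Cd79b, Blk and Car1 calls were lost under limma-voom and with the Y-linked covariate. They were also lost without A051, A021, A042, A150, A151, A015, A040 or A053, and those of Blk and Car1 without A058. The 10 B lineage markers summed to 55.5 to 109 CPM in miR146aKO_Runx1mut, 13.5 to 156 in Runx1mut, 465 to 2715 in miR146aKO and 20.5 to 88.4 in wildtype. B lineage markers were thus high in A150 and A151 and not in A051, where the 10 macrophage genes were also high. The 12 T and NK markers summed to 58.6 to 666 CPM in miR146aKO_Runx1mut, 9.82 to 124 in Runx1mut, 268 to 2022 in miR146aKO and 90.2 to 366 in wildtype, highest in A047. The 6 plasma cell markers summed to 132 to 450 CPM in miR146aKO_Runx1mut, 103 to 1533 in Runx1mut, 3571 to 12527 in miR146aKO and 38.4 to 826 in wildtype, also highest in A047, whose macrophage genes were low. The 8 dendritic cell markers summed to 44.96 to 72.5 CPM in miR146aKO_Runx1mut, 25.4 to 82.3 in Runx1mut, 94.6 to 267 in miR146aKO and 38.4 to 66.4 in wildtype. The 10 monocyte markers summed to 1949 to 3109 CPM in miR146aKO_Runx1mut, 402 to 4757 in Runx1mut, 781 to 1340 in miR146aKO and 144 to 1610 in wildtype, with A021 of Runx1mut highest and A151 of miR146aKO under A040 of wildtype. In the averaged comparison 7 of these 10 were on the higher side, with a median of 0.84 on the log2 scale. At an unadjusted p under 0.05, 4 were higher and 0 lower. EdgeR and limma-voom called 0 of them, and DESeq2 called Ms4a4c and Cx3cr1 higher. The 12 neutrophil markers summed to 13593 to 60090 CPM in miR146aKO_Runx1mut, 2682 to 57935 in Runx1mut, 4010 to 12276 in miR146aKO and 2337 to 28836 in wildtype.

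Stroma also makes Vcam1, and the part of stroma in its level was not tested. The 12 stromal and endothelial markers summed to 39.5 to 706 CPM in miR146aKO_Runx1mut, 66.0 to 132 in Runx1mut, 76.2 to 607 in miR146aKO and 63.1 to 111 in wildtype. Cxcl12 and Lepr, which define marrow stroma, had 2632 and 577 counts in A031, 655 and 32 in A150 and 1420 and 129 in A151. Vcam1 stood at 393 CPM in A031, 2058 in A150 and 1814 in A151. Cxcl12 and Lepr had 0 counts each in A051, where Vcam1 stood at 1889 CPM and 6 of the 12 markers were at 0. The 10 erythroid markers summed to 50.3 to 1012 CPM in miR146aKO_Runx1mut, 20.0 to 107 in Runx1mut, 34.8 to 386 in miR146aKO and 136 to 467 in wildtype, with A001 at 50.3 while its 10 macrophage genes summed to 1075 CPM. The 6 megakaryocyte markers summed to 6.55 to 1385 CPM, 95.6 to 1216, 21.5 to 63.2 and 90.1 to 718 CPM in miR146aKO_Runx1mut, Runx1mut, miR146aKO and wildtype, and the 6 osteoclast markers to 0.345 to 18.9, 1.14 to 2.70, 3.89 to 44.0 and 0.222 to 3.56 CPM. The 8 markers of the gate and of stem cells summed to 261 to 1363 CPM in miR146aKO_Runx1mut, 282 to 2505 in Runx1mut, 643 to 1431 in miR146aKO and 1330 to 2886 in wildtype.

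**Figure D4:**
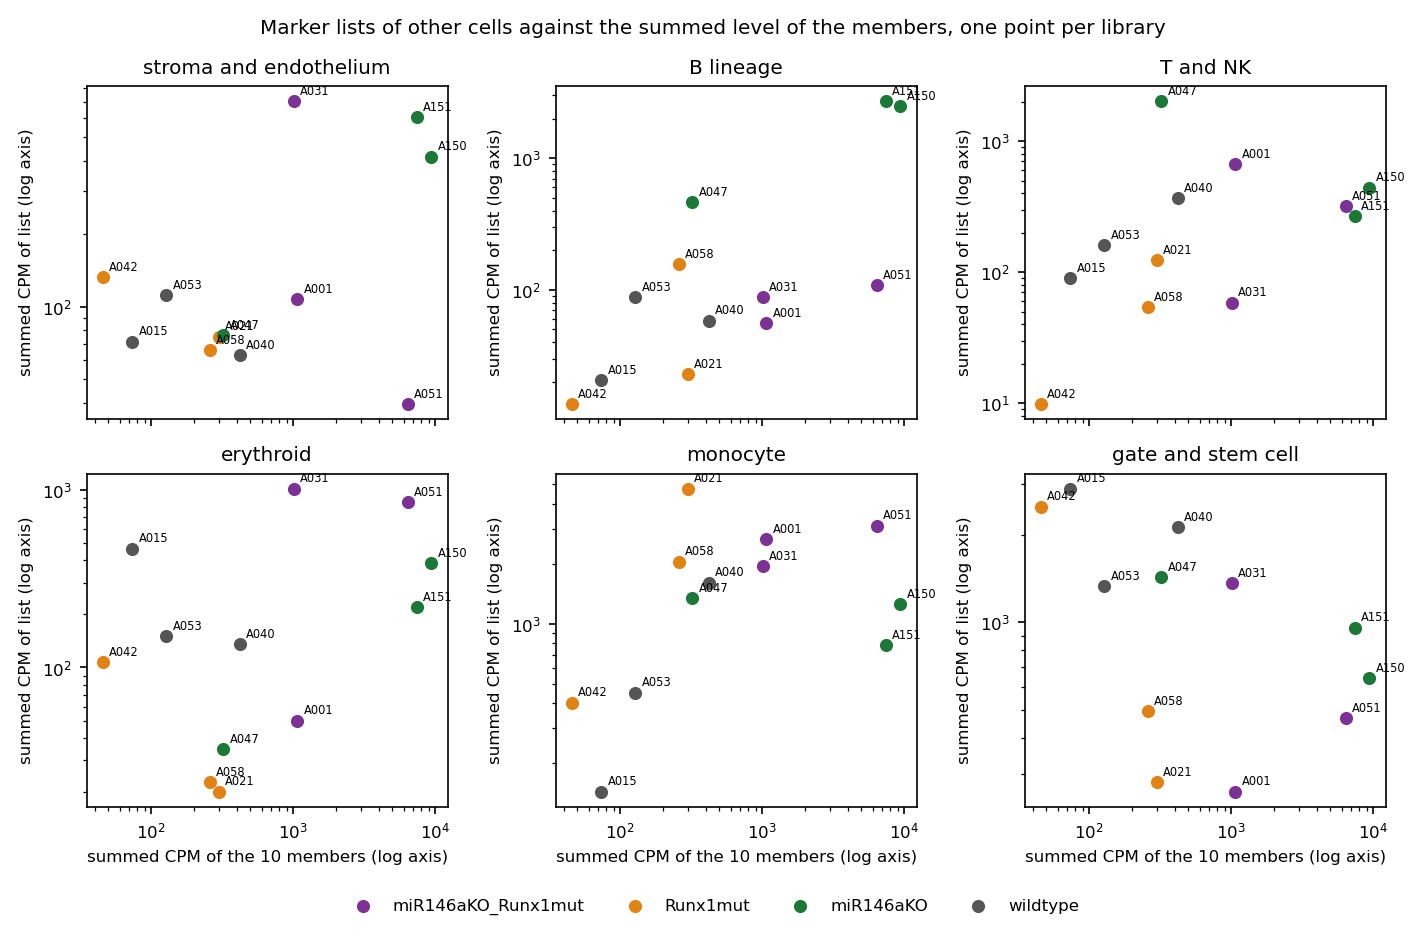
Summed CPM of 6 marker lists (vertical log axes) against the summed CPM of the 10 macrophage genes (horizontal log axis), 1 point per library. A051 lies far right with the lowest stromal sum, 39.5 CPM, while A150 and A151 lie far right with high stromal and B lineage sums.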

How the data were processed

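RNA of sorted cells was amplified with the NuGEN Ovation RNA-Seq System and made into Nextera XT libraries, per the labels' protocols, a route that keeps no strand. The authors deposited whole-number read counts per gene symbol; FastQC 0.11.2, HISAT2 2.0.4, featureCounts 1.5.2 and mm10 are named in the submitters' processing notes, and the annotation is not given in the sources used here. The deposited group table assigned the 12 libraries to 4 groups, with no replicate numbers. Counts were filtered with filterByExpr, scaled by TMM and tested with edgeR 4.0.16 (quasi-likelihood, all 12 libraries, Benjamini-Hochberg adjustment, called under 0.05) in R 4.3.3, after tests on simulated data. The simulated spread was set below that of these data, so those tests checked the code and not how often it finds changes here. The SE is the log2 fold change over the root of F. DESeq2 1.42.0 and limma 3.58.1 (voom) were alternatives. CPM uses TMM-scaled library sizes. Members were named by symbol, with tests given where the unadjusted p was under 0.05 or a call was described; like genes were the 10 of highest correlation, 1 of which is not reported here, and pathway genes those called or the 3 most abundant. Members and lists were chosen with earlier results of these data known. Gene models are GENCODE on GRCm38. Depth was 3540043 to 7026393 counts.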

Additional observations from a re-analysis of the deposited data

How the results depend on the processing

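For the 40 pairs of a gene and a comparison with an unadjusted p under 0.05, 707 values were recomputed and 1 changed direction. C1qa in Runx1mut against wildtype was 0.88 without A040, against -5.35 with it. A040 held 96 of the 97 C1qa counts of wildtype. Without it, 0 and 1 counts in A015 and A053 stood against 3 in Runx1mut. The other pairs were not recomputed singly. Counts of calls moved with the tool and the filter. For miR146aKO against wildtype (23 genes, 1 member) they were 980 and 8 with DESeq2, 76 and 0 with limma-voom, 796 and 9 with no count filter, 158 and 4 with only those groups and 0 and 0 with the Y-linked covariate. For the averaged comparison (51 genes, 3 members) they were 551 and 10 with DESeq2, 2 and 0 with limma-voom, 624 and 10 with no filter and 2 and 0 with the covariate. For miR146aKO_Runx1mut against wildtype (0 and 0) they were 248 and 3 with DESeq2 and 256 and 9 with no filter; against Runx1mut (0 and 0), 85 and 5 and 144 and 8; against miR146aKO (2 and 0), 786 genes with DESeq2, 12 with limma-voom, 549 and 1 with no filter, 13 with DESeq2 size factors and 4 with only those groups. For Runx1mut against wildtype (0 and 0) they were 122 genes with DESeq2 and 162 and 2 with no filter; for the interaction (3 and 0), 234 with DESeq2, 0 with limma-voom and 268 and 2 with no filter. Leaving out 1 library gave 2 to 135 genes and 0 to 4 members (miR146aKO against wildtype), 0 to 193 and 0 to 8 (averaged), 0 to 2 genes (Runx1mut against wildtype), 0 to 7 (miR146aKO_Runx1mut against miR146aKO) and 1 to 6 (interaction). The members' median log2 fold change then ran over 3.96 to 8.33 for miR146aKO and 2.42 to 6.83 for miR146aKO_Runx1mut, each against wildtype, 3.70 to 6.46 for the averaged comparison, 3.10 to 5.01 for miR146aKO_Runx1mut against Runx1mut, -2.49 to -0.44 against miR146aKO, -2.53 to -0.56 for the interaction and, with a change of sign, -0.74 to 1.27 for Runx1mut against wildtype. C1qa in Runx1mut against wildtype ran over -6.10 to 0.88. No paired analysis was possible because the columns carry no replicate numbers. With 3 libraries a group and a common biological coefficient of variation of 0.809, differences between single members are imprecise.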
